A study of Rattus norvegicus with 56 samples.

Results

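The miR-132 and miR-212 cluster is a pair of neighbouring microRNA genes, and the members described here are their 4 mature arms, miR-132-3p, miR-132-5p, miR-212-3p and miR-212-5p. They were taken by name from the raw counts of 5 deposited tables, which listed 682 rat microRNAs in all. All 4 arms were listed in the myocardium, with 661 microRNAs, and in maternal serum, with 518. In amniotic fluid, with 523 microRNAs listed over its tables, only the 2 arms of miR-132 were listed.

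The 56 samples came from a Sprague-Dawley rat model of ventricular septal defect (VSD), a hole in the wall between the ventricles, and were collected on embryonic day 19. NC dams were given distilled water by repeated oral gavage during pregnancy, and the other dams dimethadione (DMO), a teratogenic metabolite of an antiepileptic drug, in the same way. DMO-exposed fetuses with a defect formed the VSD group and those with an intact septum the non-VSD group, so DMO exposure is shared by both. All 3 groups were sampled for myocardium (RNA from paraffin blocks) and for amniotic fluid, and NC and VSD alone for the serum of the dams, with 7 samples in each group. The same NC samples stood against both DMO groups, so the comparisons with NC share their controls. The labels do not name the dam of each fetus, and littermates may be among the replicates.

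A microRNA hairpin is cut into a duplex of a 5p and a 3p arm, of which one usually stays in the silencing complex, where bases 2 to 8, the seed, pair with target messages. miR-132 and miR-212 are made from one primary transcript that is switched on by the transcription factor CREB in neurons. In the heart the family is known for promoting cardiomyocyte hypertrophy and limiting autophagy by targeting the transcription factor FoxO3, and miR-132 is also known as a pro-angiogenic microRNA of endothelial cells.

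The mature sequences are shown because the 3p arms carry the family's shared seed and the 5p arms do not. They are RefSeq sequences with GRCr8 coordinates on the plus strand of chromosome 10, written 5′ to 3′ with the seed in capitals.
miR-212-5p: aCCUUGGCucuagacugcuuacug
miR-212-3p: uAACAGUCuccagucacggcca
miR-132-5p: aCCGUGGCuuucgauuguuacu
miR-132-3p: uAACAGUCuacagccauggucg
miR-212-5p lies at chr10:60521771-60521794 and miR-212-3p at chr10:60521811-60521832, in the Mir212 hairpin gene. miR-132-5p lies at chr10:60522055-60522076 and miR-132-3p at chr10:60522091-60522112, in the Mir132 hairpin gene, and 222 bases separate miR-212-3p from miR-132-5p. The 3p arms are the only 2 of 693 rat mature microRNAs in the RefSeq table with the seed AACAGUC. They have the same base at 17 of 22 positions and differ outside the seed by A10C, C14U, U17C, U20C and G22A, counted from the 5′ end with miR-132-3p first. The seeds CCGUGGC of miR-132-5p and CCUUGGC of miR-212-5p each belong to 1 rat mature microRNA in that table.

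Library totals were 1694811 to 9371130 counts in the myocardium, 78188 to 331787 in amniotic fluid and 147609 to 581350 in maternal serum. Heart muscle markers (miR-1-3p, miR-133a-3p, miR-208a-3p, miR-208b-3p and miR-499-5p) were all counted in the myocardium, where their sum was 4960 to 62187 CPM of the library total (counts scaled to a common total). In 3 myocardium libraries, NC 2, VSD 1 and VSD 4, that sum was below the sum of 8 epithelium markers, and miR-132 is also given without them below.

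In the myocardium every arm had a count in all 21 libraries, at low levels. On the scale of CPM of the library total, the mean level over the 21 samples was 12.1 ± 7.19 (SD) for miR-132-3p, 7.76 ± 3.99 for miR-132-5p, 5.64 ± 3.98 for miR-212-5p and 2.59 ± 1.78 for miR-212-3p. miR-132-3p ranked between 241 and 382 among the 661 microRNAs of a library, and miR-212-3p between 326 and 487. Within a library, miR-132-3p had more counts than miR-132-5p in 19 of 21 samples and miR-212-5p more than miR-212-3p in 21 of 21. miR-132-5p had more counts than miR-212-5p in 17 of 21 samples. The SDs of neighbours in this order overlapped for each pair. These levels are not divided by length, the arms being 22 to 24 bases long, and differences in how well each sequence is captured by the library kit were not tested.

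The comparison of non-VSD with NC addresses exposure to DMO without a defect. The 2 arms of miR-132 had fitted levels over 2 times as high in non-VSD hearts, and no arm passed an adjusted p of 0.05. Levels below are CPM scaled by TMM, edgeR's correction for library composition. miR-132-3p was 5.55 at its lowest, 6.95 at its median and 10.9 at its highest in NC, against 7.44, 11.9 and 38.1 in non-VSD. All 7 non-VSD samples exceeded the NC median and 4 exceeded the highest NC sample, with non-VSD 1 (38.1) and non-VSD 2 (25.9) well above the rest. The log2 fold change of miR-132-3p was 1.19 ± 0.35 (SE, n = 7 and 7), with an unadjusted p of 0.00365 and an adjusted p of 0.0926 in edgeR's quasi-likelihood test.

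miR-132-5p, the arm with its own seed, was 3.07, 5.41 and 7.90 CPM (lowest, median and highest, TMM scale) in NC against 5.12, 10.1 and 18.9 in non-VSD. Here 6 of 7 non-VSD samples exceeded the NC median and 5 exceeded the highest NC sample, again led by non-VSD 1 and 2. Its log2 fold change was 1.18 ± 0.33 (SE), with an edgeR p of 0.00273 and an adjusted p of 0.0911. The ranges of the groups overlapped for both arms of miR-132.

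miR-212-3p, which shares the seed of miR-132-3p, was 0.78, 2.18 and 2.70 CPM (lowest, median and highest, TMM scale) in NC and 0.89, 2.27 and 9.87 in non-VSD. The medians were close, and the highest value came from non-VSD 1, with 59 counts where the other non-VSD libraries had 4 to 29. Its log2 fold change was 0.80 ± 0.46 (SE), with an adjusted p of 0.424 in edgeR. miR-212-5p was 1.91, 4.20 and 9.39 CPM (TMM scale) in NC and 3.12, 5.17 and 22.9 in non-VSD, the highest again being non-VSD 1, with a log2 fold change of 0.77 ± 0.50 (SE) and an adjusted edgeR p of 0.516. The groups overlapped for both arms of miR-212, and 4 of 7 non-VSD samples exceeded the NC median for each. Above the highest NC sample were 3 of 7 non-VSD samples for miR-212-3p and 1 of 7 for miR-212-5p.

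Of the 4 arms, 0 passed the adjusted p of 0.05 in non-VSD against NC, where 0.219% of the 456 microRNAs tested passed. At the study's own threshold, an unadjusted p under 0.05 with a fold change of at least 2 either way, both arms of miR-132 passed and neither arm of miR-212 did, beside 4.17% of all microRNAs tested. A difference between the response of miR-132 and that of miR-212 is given below as a ratio. Without non-VSD 1 the log2 fold change of miR-132-3p was 0.87 (edgeR adjusted p = 0.151), under the fold of 2, and that of miR-132-5p was 1.02 (adjusted p = 0.151). Without it miR-212-3p was at 0.21 and miR-212-5p at 0.17. DESeq2 on the same counts put both arms of miR-132 past the adjusted threshold, with log2 fold changes of 1.14 (adjusted p = 0.0246) and 1.17 (adjusted p = 0.0143), as did edgeR scaled by library size alone, at 1.33 (adjusted p = 0.0405) and 1.40 (adjusted p = 0.0132). With limma on log2(CPM + 1) they were at 0.91 and 0.97, under the fold of 2 of the study's threshold.

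**Figure D1:**
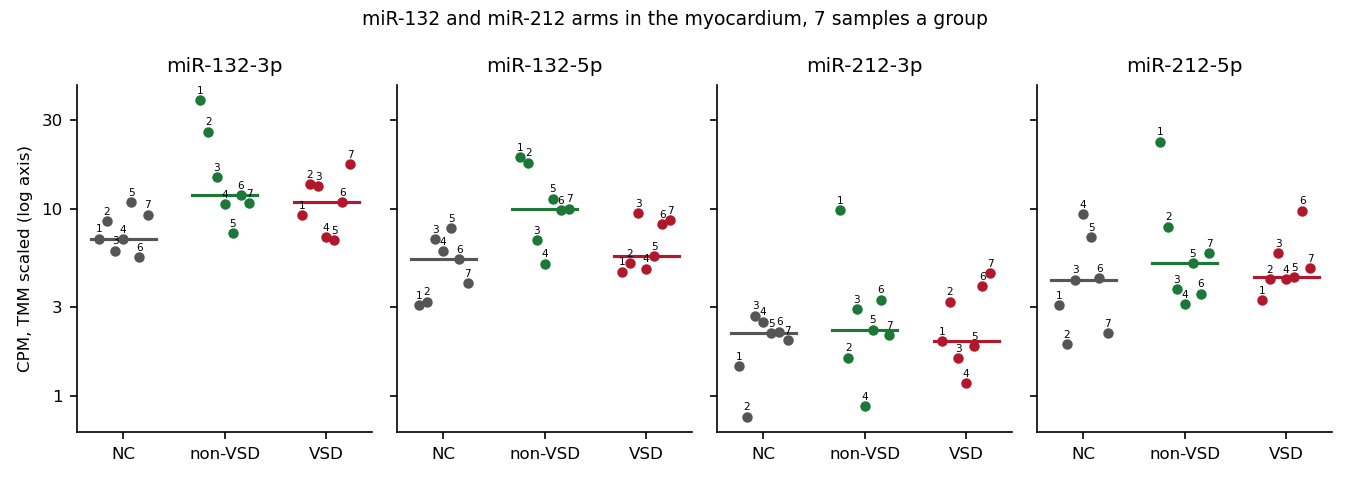
TMM-scaled CPM (log axis) of the 4 arms in each myocardium sample by group, with the replicate number above each point and a line at the group median. non-VSD 1 was the highest sample for every arm, and the medians of miR-132-3p were 6.95 in NC, 11.9 in non-VSD and 10.9 in VSD.

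Several marker sums moved with this comparison. The endothelium markers miR-126a-3p and miR-126a-5p summed to 10638 to 16523 CPM of the library total in NC and to 20135 to 29096 in non-VSD. There was no overlap on that scale, and both were counted in every group. The separation does not carry over to the TMM scale of the arms. NC 3, with a sum of 15065, had a TMM factor of 0.6302, and non-VSD 3, with 24657, one of 1.195. The 4 red blood cell markers had a median sum of 29060 in NC and 7704 in non-VSD, and the 4 white blood cell markers one of 1255 and 584. The heart muscle sum was 4960 to 62187 in NC and 27600 to 44349 in non-VSD. The part of these shifts in the miR-132 difference was not tested, and fewer cells of a type and less RNA per cell cannot be told apart in such tissue samples. The neuron markers miR-124-3p, miR-9a-5p and miR-9a-3p had a median sum of 274 in NC and 553 in non-VSD, and the epithelium markers one of 1084 and 1811. In the libraries with the most miR-132-3p, non-VSD 1 and non-VSD 2, the neuron sum was the lowest of all 21 samples, at 118 CPM in each. Those libraries had endothelium sums of 28686 and 29096, red blood cell sums of 4949 and 3051 and white blood cell sums of 358 and 354. Their heart muscle sums were 38221 and 42390 and their epithelium sums 296 and 1536. The relation of these sums to miR-132-3p was not tested. With NC 2 left out for its low heart muscle sum, the log2 fold changes were 1.23 for miR-132-3p (adjusted p = 0.0723 in edgeR) and 1.09 for miR-132-5p (adjusted p = 0.0812).

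The comparison of VSD with NC asks about hearts with the defect. miR-132-3p had 6.83, 10.9 and 17.4 CPM in VSD (lowest, median and highest, TMM scale) against 5.55, 6.95 and 10.9 in NC. The NC median was exceeded in 6 of 7 VSD samples and the highest NC sample in 4, VSD 7 being the highest. The log2 fold change was 0.52 ± 0.26 (SE), with an edgeR p of 0.0610 and an adjusted p of 0.266. The other arms were closer to NC on the TMM scale. miR-132-5p had 4.64, 5.59 and 9.56 CPM in VSD (lowest, median and highest, TMM scale) and a log2 fold change of 0.36 ± 0.28 (SE).

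miR-212-3p had 1.18, 1.98 and 4.55 CPM in VSD (TMM scale), with a median below that of NC and a log2 fold change of 0.45 ± 0.36 (SE). miR-212-5p had 3.26, 4.35 and 9.81 CPM in VSD (TMM scale) and a log2 fold change of 0.21 ± 0.37 (SE), which was -0.060 without VSD 6. The groups overlapped for each arm and the edgeR adjusted p of the last 3 arms lay between 0.476 and 0.779. None of the 4 arms passed either threshold in VSD against NC, where 0.426% of the 469 microRNAs tested passed the adjusted p and 6.82% the study's threshold. Without NC 2, VSD 1 and VSD 4, the log2 fold change of miR-132-3p was 0.69 (adjusted p = 0.176 in edgeR). Without VSD 7 it was 0.38. Scaled by library size alone, the log2 fold changes were 0.88 for miR-132-3p (edgeR adjusted p = 0.0542) and 0.77 for miR-132-5p (adjusted p = 0.0671). They were 0.84 for miR-212-3p (adjusted p = 0.101) and 0.63 for miR-212-5p, while the median over all microRNAs was 0.32 with that scaling.

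The sum of the endothelium markers was also higher in VSD, at 16153 to 30570 CPM of the library total, and overlapped NC. The epithelium sum had a median of 3385 in VSD against 1084 in NC and the neuron sum one of 897 against 274. The red blood cell sum had a lower median, 8905 against 29060, as did the white blood cell sum, 694 against 1255, and the heart muscle sum, 23794 against 31235. Their part in the levels of the arms was not tested.

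With both DMO groups set against NC in a fit of all 21 samples, miR-132-3p had a log2 fold change of 0.83 ± 0.29 (SE, edgeR adjusted p = 0.0801) and miR-132-5p one of 0.75 ± 0.27 (adjusted p = 0.0896). miR-212-3p was at 0.61 ± 0.40 and miR-212-5p at 0.47 ± 0.40. Of the 4 arms, 0 passed the adjusted p, which 8.49% of the 483 microRNAs tested did, and 0 passed the study's threshold, which 4.76% did. Every one of the 21 fits that left out 1 sample kept an unadjusted p under 0.05 for both arms of miR-132, with log2 fold changes of 0.67 to 0.94 for the 3p arm and 0.65 to 0.87 for the 5p arm. Without NC 2, VSD 1 and VSD 4 the arms of miR-132 were at 0.96 (adjusted p = 0.0730 in edgeR) and 0.76 (adjusted p = 0.126). The adjusted p was below 0.05 for both in DESeq2, at 0.0381 and 0.0393, and with library-size scaling alone, at 0.0134 and 0.00665.

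VSD against non-VSD compares exposed hearts with and without the defect. All 4 arms had negative log2 fold changes, -0.62 ± 0.32 (SE) for miR-132-3p, -0.79 ± 0.30 for miR-132-5p, -0.32 ± 0.43 for miR-212-3p and -0.53 ± 0.44 for miR-212-5p. The lowest unadjusted p was 0.0163, for miR-132-5p, with an adjusted edgeR p of 0.426, and the groups overlapped for every arm. No arm passed the adjusted p, which 0% of the 483 microRNAs did, or the study's threshold, which 5.18% did. Over all microRNAs, 56 had an unadjusted p under 0.05 in edgeR, and DESeq2 called 0. Without non-VSD 1 the arms of miR-212 stood at 0.28 and 0.077 and miR-132-3p at -0.28, so that sample set the direction for miR-212. Without NC 2, VSD 1 and VSD 4 the log2 fold changes were -0.50 for miR-132-3p, -0.64 for miR-132-5p, -0.094 for miR-212-3p and -0.38 for miR-212-5p.

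**Figure D2:**
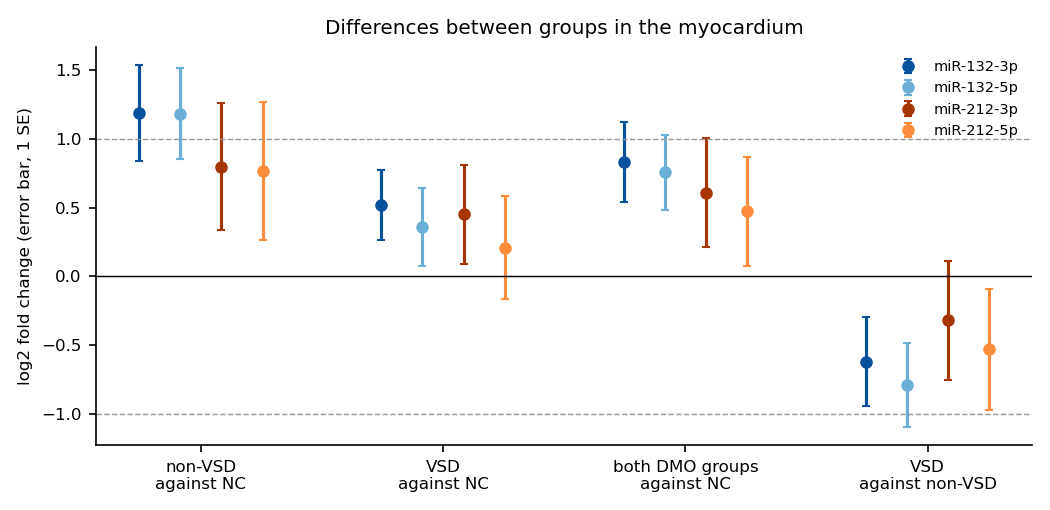
log2 fold change of each arm in the 4 myocardium comparisons, with 1 SE, from edgeR, and dashed lines at a log2 fold change of 1 and -1. Both arms of miR-132 stood above the upper line in non-VSD against NC (1.19 and 1.18), while all arms were below 0 in VSD against non-VSD.

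The ratio of 2 arms within a library needs no scaling and was taken as log2 of the counts with 0.5 added to each. miR-132-3p over miR-132-5p averaged 0.61 ± 0.64 (SD, n = 7) in NC, 0.50 ± 0.63 in non-VSD and 0.72 ± 0.41 in VSD. Over the 21 libraries the 3p arm had 1699 counts and the 5p arm 1032, a 3p share of 62.2%. miR-212 had the opposite order, with miR-212-3p over miR-212-5p at -1.06 ± 0.59 in NC, -1.17 ± 0.75 in non-VSD and -1.04 ± 0.65 in VSD, and its 3p arm held 32.4% of the counts of both arms. For each ratio the groups overlapped.

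Between the hairpins, miR-132-3p over miR-212-3p averaged 1.98 ± 0.79 (SD) in NC, 2.49 ± 0.87 in non-VSD and 2.13 ± 0.46 in VSD on the log2 scale. It was above 0 in all 21 samples, so miR-132-3p supplied most counts with the shared seed in each library. In TMM-scaled CPM the 2 arms with that seed summed to 9.74 ± 1.86 in NC, 20.4 ± 13.5 in non-VSD and 13.8 ± 4.86 in VSD, with miR-132-3p making up 79.1%, 84.0% and 81.4% on average. The difference in this ratio between non-VSD and NC was 0.51, with an exact two-sided permutation p of 0.256 over all 3432 groupings. Of 15 ratio tests over the tissues, 0 had a p under 0.05, and every adjusted p was at least 0.906. Shifts in the balance of the arms or of the hairpins were thus not detected at these counts.

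**Figure D3:**
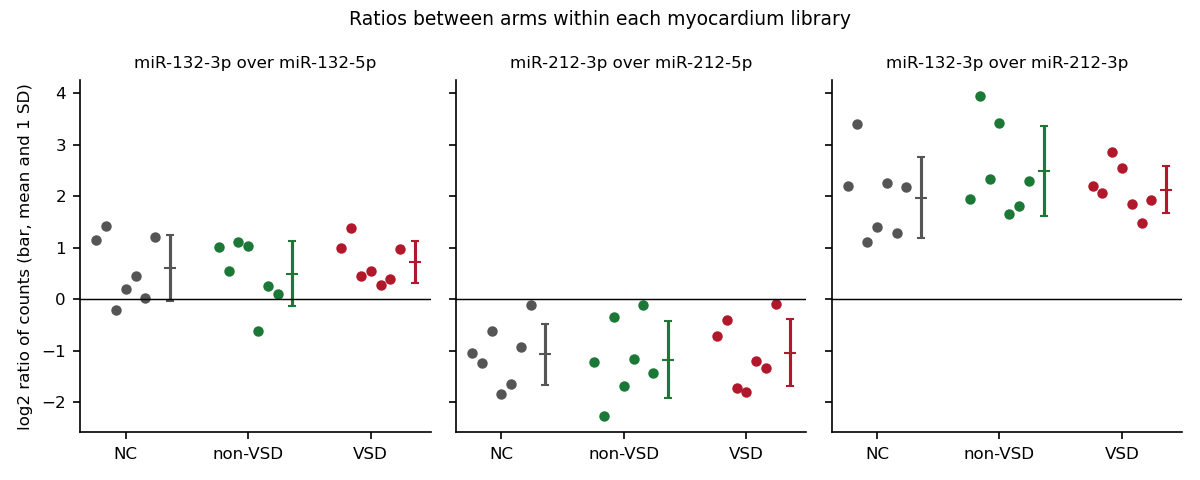
log2 ratio of the counts of 2 arms in each myocardium library by group, with the mean and 1 SD. The ratio within miR-132 was above 0 in 19 of 21 libraries and that within miR-212 below 0 in all 21, with the groups side by side.

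Across the 21 myocardium samples the levels of the arms of one hairpin were correlated. For miR-132-3p and miR-132-5p on the log2 CPM scale, Pearson's r was 0.69 (permutation p = 0.00052, adjusted p = 0.0125 over 24 tests) and Spearman's rho 0.53 (permutation p = 0.0144, adjusted p = 0.0924). Without non-VSD 1 and 2, the samples farthest from the median, r was 0.38. Within groups r was -0.02 in NC, 0.66 in non-VSD and 0.64 in VSD, none with an exact permutation p under 0.05. Without the 2 samples of the group farthest from its median of miR-132-3p, r was -0.70 in NC, -0.48 in non-VSD and 0.55 in VSD.

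For miR-212-3p and miR-212-5p r was 0.67 (permutation p = 0.00169, adjusted p = 0.0203) and rho 0.45 (permutation p = 0.0436, adjusted p = 0.209), and r was 0.27 without NC 2 and non-VSD 1. Within groups this r was 0.69 in NC, 0.73 in non-VSD and 0.41 in VSD. Without the 2 samples of each group farthest from its median of miR-212-3p it was 0.47, -0.99 and -0.21. For miR-132-3p and miR-212-3p r was 0.53 (permutation p = 0.0154, adjusted p = 0.0924) and rho 0.38 (permutation p = 0.0858, adjusted p = 0.218), and r was 0.38 without non-VSD 1 and 2. Within NC the 3p arms of the hairpins had r of -0.31, against 0.59 in non-VSD and 0.71 in VSD, with 7 samples each and exact permutation p-values of at least 0.0909. These pooled relations rest in large part on 1 or 2 samples, and the group of a sample is part of them.

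The microRNAs whose levels followed miR-132-3p most closely over the 21 samples were miR-450a-3p (Spearman's rho 0.75), miR-99a-5p (0.69) and miR-335 (0.68), as a description over 482 other microRNAs. miR-132-5p stood at rank 26 in that order and miR-212-3p at rank 67. For miR-212-3p the closest were miR-3099 (0.70), miR-129-5p (0.64) and miR-450b-3p (0.62), with miR-132-5p at rank 16, miR-212-5p at 38 and miR-132-3p at 62. For neither 3p arm was another arm of the cluster among the 3 closest, at counts as low as 3 for miR-212-3p.

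In amniotic fluid miR-132-3p was found in some libraries and not in others. It had a count in 3 of 7 NC libraries (7 to 10 counts), 3 of 7 VSD libraries (4 to 7) and 4 of 7 non-VSD libraries (16 to 28). The 10 libraries with a count had between 4 and 28, none had 1 to 3, and 11 had no count. Over all microRNAs of this fluid, 7.73% of the values above 0 were counts of 1 to 3, against 26.3% in maternal serum.

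As CPM of the library total, miR-132-3p in NC was 60.3, 49.3 and 40.3 in the libraries with a count, and in VSD 37.7, 32.5 and 25.8. In non-VSD it was 91.5, 84.4, 205 and 191 in the libraries with a count, all above the highest NC and VSD values. Since the other 3 non-VSD libraries had no count, the groups overlapped. A count of 0 allows up to 3 counts, which is 12.3 to 37.9 CPM in the libraries with no count, so values like those of the VSD libraries could be missed in a shallow library.

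miR-132-5p had 1 count, in NC 5, over all 21 amniotic fluid libraries. Neither arm passed the filter on low counts, so the main test was not run for them. With the filter off, edgeR gave miR-132-3p a log2 fold change of 1.94 ± 1.49 (SE, adjusted p = 0.481) in non-VSD against NC and -0.51 ± 1.59 (adjusted p = 0.903) in VSD against NC, errors nearly as large as or larger than the values. The red blood cell markers, with a median sum of 21821 CPM in NC and 64585 in non-VSD, and the white blood cell markers, at 2889 and 9476, were also higher in non-VSD fluid. So were the medians of the heart muscle sum, 162 and 796, and of the endothelium sum, 683 and 1918, while those of the epithelium sum, 119855 and 73113, and the neuron sum, 215 and 117, were lower. The part of these markers was not tested.

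In maternal serum miR-132-3p had a count in all 14 libraries, 1 to 10 in NC and 1 to 4 in VSD. Its level had a lowest, median and highest value of 1.84, 7.28 and 20.2 CPM of the library total in NC and 2.70, 8.10 and 27.1 in VSD, and the groups overlapped. miR-132-5p had 1 count in each of 6 NC libraries and in 1 VSD library. miR-212-3p had 5 counts over the 7 NC libraries and 6 over the 7 VSD libraries, and miR-212-5p 1 count in each group. No arm passed the filter, and without it edgeR gave a log2 fold change of -0.17 ± 0.61 (SE, adjusted p = 0.936) for miR-132-3p and 0.71 ± 0.91 (adjusted p = 0.827) for miR-212-3p. It gave -1.51 ± 0.96 (adjusted p = 0.575) for miR-132-5p and 0.38 ± 1.13 (adjusted p = 0.936) for miR-212-5p.

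Summed over the serum libraries, the 3p arm made up 42 of 49 counts of miR-132 and 11 of 13 counts of miR-212. For miR-212 that pooled order differs from the myocardium, where its 5p arm had the larger count in every library. Library by library in serum, the 3p arm of miR-212 had the larger count in 6 of 14, and the median log2 ratio was 0. By group the exact 95% interval of the 3p share in serum ran from 35.9% to 99.6% in NC and from 42.1% to 99.6% in VSD. The intervals are wide, from few counts, and the pooled 3p share in the myocardium was 31.4% in NC and 34.6% in VSD. Both tissues were prepared with the same kit for libraries and different kits for extraction, and the difference between them was not tested. These intervals cover counting error only.

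**Figure D4:**
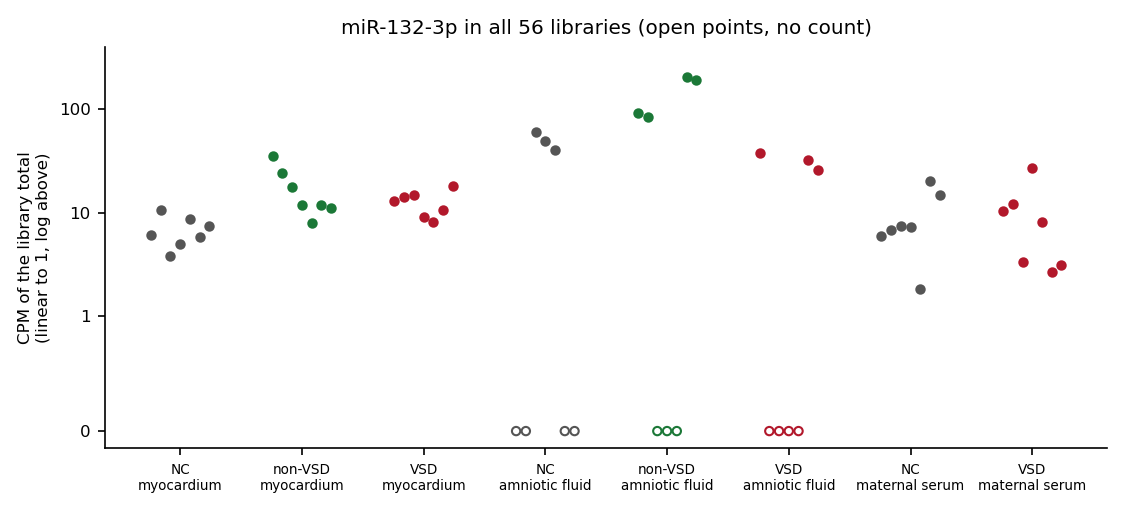
CPM of the library total for miR-132-3p in all 56 libraries (linear to 1 and logarithmic above), with open points for libraries with no count. The myocardium and serum libraries all had a count, while 11 of 21 amniotic fluid libraries had none and 4 non-VSD fluids reached 84.4 to 205.

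The arms were also read beside other microRNAs of the 2 settings the family is known for. Of 13 microRNAs linked to cardiac hypertrophy, all tested, 0 passed the adjusted p in non-VSD against NC or in VSD against NC. Over all microRNAs 0.219% and 0.426% passed there. The list had median log2 fold changes of 0.22 and -0.10 beside -0.07 and -0.05 over all microRNAs. In both DMO groups against NC, 1 of the 13 rose, miR-29b-3p, known for repressing collagens, with a log2 fold change of 1.06 ± 0.25 (SE, edgeR adjusted p = 0.0157), beside the 8.49% of all microRNAs that passed there. The next highest in that list was miR-155-5p at 0.78 ± 0.28, near the 0.83 of miR-132-3p. The lowest were miR-1-3p at -0.80 ± 0.43 (edgeR adjusted p = 0.291) and miR-133b-3p at -0.53 ± 0.36 (adjusted p = 0.422).

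Of 11 neuron-linked microRNAs, 9 could be tested in non-VSD against NC. miR-218a-5p rose there, with a log2 fold change of 0.88 ± 0.17 (SE, edgeR adjusted p = 0.0428). It was the only microRNA of the 456 tested that passed (0.219%). miR-7a-5p was lowest in the list, at -1.14 (adjusted p = 0.126). The median of the list was -0.12, while all 4 arms of the cluster were above 0. In VSD against NC 0 of 11 passed, beside 0.426% of all microRNAs, with a median log2 fold change of 0.47. In both DMO groups against NC 1 of 11 passed, miR-218a-5p at 0.73 ± 0.14 (adjusted p = 0.00404), with a list median of -0.14 and again beside 8.49% of all microRNAs. In that comparison neither list's count stands apart from that share. In VSD against non-VSD 0 of 13 and 0 of 11 passed, as did 0% of all microRNAs. The list medians were -0.14 and 0.36 beside 0.02 over all microRNAs.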

How the data were processed

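The authors deposited raw counts per mature microRNA, with normalized values and their own fold changes and p-values in the same tables, which were not used here. Per the labels and methods, bcl2fastq 2.19 and the FASTX-Toolkit preceded counting, and DESeq was among the tools. The aligner, annotation and genome build are not given in the sources used here, nor is the use of molecular identifiers. Libraries were TruSeq (myocardium, serum) or QIAseq (amniotic fluid).

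The deposited counts were fitted with edgeR 4.0.16 (R 4.3.3) over all microRNAs of a tissue: filterByExpr (count of at least 10, total of at least 15), TMM scaling, the quasi-likelihood test and Benjamini-Hochberg adjustment. The NC comparisons used 2 groups, the others all 3. The SE is the log2 fold change over the square root of F. Log2 CPM used a prior count of 2. Ratios used exact permutation tests and correlations 100000 permutations (scipy 1.17.1), exact within groups. Replicates are samples named so in the titles. Where they share a dam, p-values measure only the spread between samples. DESeq2 1.42.0, limma 3.58.1, other scalings and filters, a replicate block and leaving out each sample were alternatives. The code was tested on simulated data. Named microRNAs were the 4 members, the 3 most like each 3p arm, and the 2 highest or lowest of a list. The members and lists were chosen with earlier results of these data known.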

Additional observations from a re-analysis of the deposited data

Results flagged for a closer look

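Among 26 groups of 7 samples examined for a value far from the rest, 2 were marked, both in maternal serum and both on few counts. Marking about 1 in 20 by chance holds for continuous values and does not apply to counts this low. Fluid groups with a single count in 1 library and 0 in the others were not marked, although that library stands apart by its gap. The gap of the highest VSD serum sample, VSD 4, to the next was 0.618 of the whole range for miR-132-3p, above the critical 0.568. That library had 4 counts and 27.1 CPM of the library total, with the others at 2.70 to 12.0. For miR-212-3p the gap of VSD 1 was 0.697 of the range, from 3 counts, 10.3 CPM, with the others at 0 to 3.12. No arm was marked in the myocardium on the log2 scale, where non-VSD 1 was the highest sample of its group for all 4 arms. The scales differ, since the serum gaps were taken on CPM without a log. In TMM-scaled CPM non-VSD 1 stood at 9.87 for miR-212-3p, with the next non-VSD sample at 3.29. For miR-212-5p it stood at 22.9, with the next at 8.06. Without the log, the gap of non-VSD 1 would be above the critical 0.568 for both arms of miR-212, so the lack of a mark there depends on the scale. The other myocardium gaps were not examined without the log.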

How the results depend on the processing

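No arm reached an adjusted p of 0.05 in the edgeR fits of the 4 myocardium comparisons, and DESeq2 and library-size scaling each put 4 values of miR-132 past it. With DESeq2 the log2 fold changes of the 3p and 5p arms were 1.14 and 1.17 in non-VSD against NC and 0.83 and 0.77 in both DMO groups against NC. With library-size scaling alone they were 1.33 and 1.40, and 1.10 and 1.08. That scaling moved the median log2 fold change of all microRNAs from -0.07 to 0.13 in non-VSD against NC and from -0.05 to 0.32 in VSD against NC. Relative to those medians miR-132-3p stood at 1.26 with TMM and 1.20 without in non-VSD. No adjusted p of an arm came under 0.05 with limma, no filter, all 3 groups in one fit or, chosen after seeing the data, without NC 2, VSD 1 and VSD 4, and no ratio had a p under 0.05 with a pseudocount of 1 or at least 10 counts over both arms. With all replicates or that set left out, calls over all microRNAs ranged from 0 to 46 in VSD against NC, from 0 to 47 in non-VSD against NC and from 5 to 66 in both DMO groups against NC, and without NC 2 alone they were 77, 19 and 61. The cause was not tested.

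Leaving out 1 sample turned the direction of 16 of 378 values, none with an arm called. For VSD against non-VSD these values ran from -0.50 to 0.28 for miR-212-3p and from -0.74 to 0.077 for miR-212-5p, and for miR-212-5p in VSD against NC from -0.060 to 0.41. The log2 ratio miR-132-3p over miR-132-5p ran from -0.023 to 0.25 in VSD against NC and from -0.25 to 0.068 in non-VSD against NC. The ratio miR-212-3p over miR-212-5p ran from -0.13 to 0.18, from -0.29 to 0.074 and, in VSD against non-VSD, from -0.049 to 0.31.

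Equal replicate numbers were not taken to pair the samples, since in no comparison did all 7 same-numbered deviations correlate above 0.1. The numbers are those of the titles, and for some NC and VSD hearts they differ from the numbers in the sample descriptions. A pairing by the latter numbers was not examined. In hearts 3 of 7 did for NC and non-VSD, 2 of 7 for NC and VSD and 5 of 7 for non-VSD and VSD, with 2 of 7 matching best with their own number in each. In serum 5 of 7 did, and in amniotic fluid 0 to 2 of 7. With a replicate block, miR-132-3p had a log2 fold change of 1.01 and miR-132-5p one of 1.12 in non-VSD against NC, neither called. The change could not be compared between tissues, since no arm passed the filter in amniotic fluid or serum. The low counts of the arms, 3 at the least in the myocardium, limit what could be detected.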
